A study of Homo sapiens with 6 samples.

Results

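The genes HIF1A, EPAS1, ARNT, VHL, VEGFA, SLC2A1 and SIRT1 were examined in a map of HuR binding across the RNA of HEK293, an established cell line of human embryonic kidney origin. HuR is the RNA-binding protein encoded by ELAVL1. Each gene was chosen by name, and its members are the intervals that overlap its hg19 locus on the same strand. The 7 loci held 315 of the 658853 sites in the list that combines the 3 HuR samples, and 202 of the 373845 intervals in the authors' p-filtered version of that list. They held 106 of 186157 sites in HuR replicate 1, 221 of 405048 in replicate 2 and 266 of 550681 in replicate 3. The study used DO-RIP-seq, in which a nuclease digests the lysate and the RNA fragments that an antibody recovers are sequenced. The labels list 3 HuR immunoprecipitations (antibody 3A2) and 3 negative control immunoprecipitations with normal mouse sera, all from HEK293 cells. No oxygen level, hypoxia treatment or change of genotype is given for any group. Separate values of the control samples were not analysed here.

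HIF-1 alpha (HIF1A) and HIF-2 alpha (EPAS1) are the oxygen-regulated subunits of the hypoxia-inducible factors, and ARNT is the constitutive partner with which they bind DNA. When oxygen is present the VHL protein, part of a ubiquitin ligase, marks the alpha subunits for degradation. VEGFA, an angiogenic growth factor, and SLC2A1, the glucose transporter GLUT1, are classic targets of the pathway. SIRT1 is an NAD-dependent deacetylase that acts on transcription factors, HIF alpha subunits among them. HuR prefers U-rich and AU-rich RNA, and the messages of VEGFA, HIF1A and SIRT1 are among the long-studied HuR targets.

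Sequences were taken from the transcripts of GENCODE release 29, which is built on GRCh38, because no hg19 genome was at hand. For each gene the coding transcript with the longest 3′ untranslated region was used, and the 30 bases of that region with the most U are printed for 6 of the genes, 5′ to 3′ with runs of at least 4 U in capitals. They are shown because HuR prefers U-rich RNA. The rest of each message was not searched, and only the number of U was scored. The printed stretches were not placed on hg19 and are not measured sites.
HIF1A: UUUUUcuuaauuucauuccUUUUUUUggac
EPAS1: UUUUUUUUUUUUUguuuaagcugacucuuu
ARNT: UUUUUUUUUUUUUUUUUUaaauuggcuuug
VEGFA: uuuaaUUUUaauauuuguuaucauuuauuu
SLC2A1: UUUUUUUauuacugaUUUUguuaUUUUUau
SIRT1: uguguauauauaaUUUUUUUUgUUUUgucu

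The 7 untranslated regions differed in their share of U. HIF1A had 38.1% U over 1319 nt and SIRT1 37.2% over 1797 nt, against a median of 29.5% over 18333 coding genes. ARNT had 32.5%, VHL 32.2%, EPAS1 31.3%, VEGFA 29.9% and SLC2A1 27.8%. VEGFA was thus close to the median and SLC2A1 below it. The motif UUUUUUU, searched on the transcript strand with overlapping matches counted, occurred 13 times in ARNT, 8 times in EPAS1, 8 times in SIRT1, 6 times in HIF1A, 5 times in VHL, 5 times in VEGFA and 1 time in SLC2A1. In untranslated regions between 0.8 and 1.25 times as long as each member's, the median number of matches was 1 for HIF1A, SLC2A1 and SIRT1 and 2 for the other members, and between 50.3% (HIF1A) and 71.4% (ARNT) held at least 1. SLC2A1 equalled its median and the other 6 exceeded theirs. Because matches overlap, 1 long run of U is counted many times, as in the stretches printed for ARNT and EPAS1. The counts are thus not numbers of separate elements. The pentamer AUUUA occurred 10 times in VEGFA, 9 times in SIRT1, 8 times in HIF1A, 6 times in ARNT, 5 times in EPAS1, 3 times in VHL and 1 time in SLC2A1. In regions of like length its median was 4 for VEGFA, 3 for SIRT1, 2 for HIF1A, 5 for ARNT, 4 for EPAS1, 5 for VHL and 3 for SLC2A1, so VHL and SLC2A1 lay below theirs and ARNT and EPAS1 exceeded theirs by 1. The longer AU-rich element UUAUUUAUU, which contains AUUUA, was found 2 times in HIF1A and 1 time in VEGFA and not in the other members. It occurred in 6.87% of untranslated regions as long as that of HIF1A and in 9.37% of those as long as that of VEGFA. A match describes letters in the transcript and is not a site.

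Each interval carries the authors' LOD score, whose scale and log base no label or header states. Its levels differ between lists, so a score is given below as its percentile within its own list when lists are set side by side. The read depth is unknown. Per the labels' protocols, lysate was pooled after digestion and then split between immunoprecipitations, so an SD over the 3 HuR replicates may cover technical spread only. No test was made between genes, because the sites of a locus are not replicates and there are no control values, and values are read against the spread over replicates. Transcript levels were not analysed here, so more RNA of a gene and more HuR on each RNA cannot be told apart.

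By their counts of sites, without regard to length, the loci were sorted into dense and sparse ones. HIF1A had 32, 72 and 83 sites in replicates 1, 2 and 3. SIRT1 had 26, 57 and 60, ARNT had 22, 52 and 73, and VHL had 15, 29 and 33. The other 3 genes had single digits in every replicate: EPAS1 had 6, 6 and 6, VEGFA 4, 3 and 5, and SLC2A1 1, 2 and 6. The lowest count of a dense locus was 15, for VHL in replicate 1. The groups were drawn from these counts, so their separation is not a further result.

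Relative to the length of each list, the counts were close between replicates for the dense loci. HIF1A had 16.7 ± 1.42 sites per 100000 sites of the list (SD, n = 3), SIRT1 13.0 ± 1.80, ARNT 12.6 ± 0.740 and VHL 7.07 ± 1.04. EPAS1 had 1.93 ± 1.14, VEGFA 1.27 ± 0.769 and SLC2A1 0.707 ± 0.332. SIRT1 lay above ARNT in replicates 1 and 2 and below it in replicate 3, and VEGFA lay above SLC2A1 in replicates 1 and 2 and below it in replicate 3, while EPAS1 lay above VEGFA in all 3. The gap between HIF1A and its paralog EPAS1 was larger than the spread of either. With every list cut to the top 186157 sites by score, the length of the shortest list, HIF1A kept 32, 34 and 35 sites and SIRT1 26, 33 and 30. EPAS1 then had 6, 2 and 1 and VHL 15, 10 and 8, so under this limit their counts were lowest in replicate 3.

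**Figure D1:**
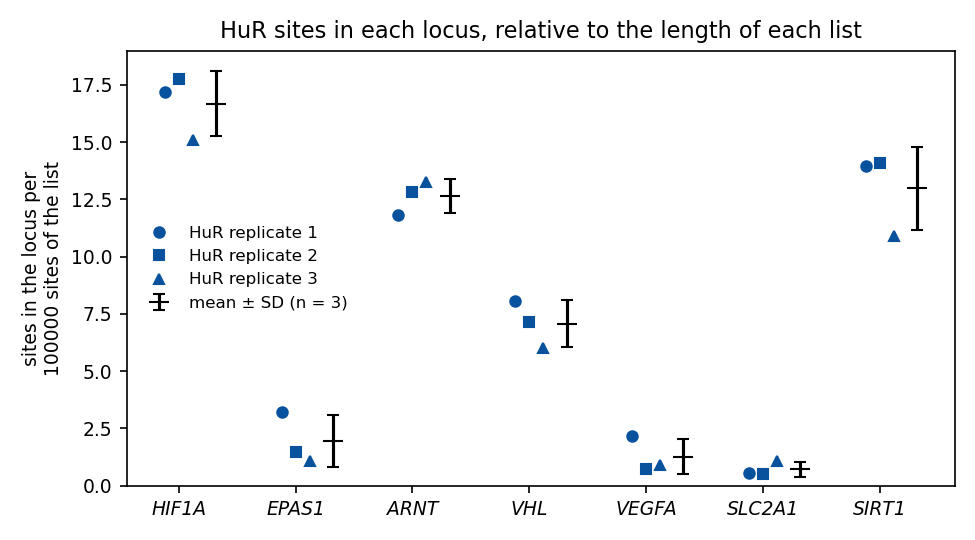
Same-strand HuR sites in each locus per 100000 sites of the replicate list (vertical axis), for 7 genes (horizontal axis). Points are the 3 HuR replicates and the bars beside them the mean ± SD (n = 3). HIF1A lies between 15.1 and 17.8, while EPAS1, VEGFA and SLC2A1 lie at or below 3.22.

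Locus length changed this order. VHL, the shortest locus at 12.0 kb, had 21.3 ± 7.85 sites per 10 kb (SD, n = 3), against 14.1 ± 5.58 for SIRT1 (33.7 kb), 11.8 ± 5.08 for HIF1A (52.9 kb) and 7.31 ± 3.82 for ARNT (67.1 kb). VEGFA (16.3 kb) had 2.46 ± 0.614, SLC2A1 (33.8 kb) 0.888 ± 0.783 and EPAS1 (89.3 kb) 0.672 in each replicate. These densities are not adjusted for the lengths of the lists. They rose with list length from replicate 1 to replicate 3, except in VEGFA and EPAS1. The order VHL, SIRT1, HIF1A, ARNT held in each of the 3 replicates. In the combined list, a 10-kb window of one strand that held any site held a median of 4, with 17 at the 90th percentile. That list holds more sites than any replicate list. In it VHL had 30.7 sites per 10 kb, SIRT1 19.3, HIF1A 19.1 and ARNT 13.6. VEGFA had 3.69, SLC2A1 2.37 and EPAS1 0.784. The windows leave out those without a site, whereas the values of the loci include their empty stretches. The windows are therefore not a like measure, and a locus below their median is not shown to be below the typical locus.

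HIF1A carried sites along nearly its whole length. Its 101 combined sites left no stretch longer than 2.65 kb without a site, against 9.42, 3.68 and 2.67 kb in replicates 1, 2 and 3, and 92 of them lay upstream of the last 3 kb. The highest combined LOD of all 7 loci, 22.1, was at chr14:62192496-62192580 on the plus strand, 22.4 kb before the 3′ end of the locus. It stood at percentile 99.6 in replicate 1, 98.7 in replicate 2 and 99.8 in replicate 3. The next highest HIF1A sites present in all 3 replicate lists were chr14:62199751-62199840 with a LOD of 18.5 and chr14:62203016-62203090 with 16.3, which lay 15137 and 11887 nt before the end. Exons and introns were not assigned, since exon annotation on hg19 was not at hand.

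The last 1.3 kb of HIF1A held the widest site of the 7 loci. It spanned 690 nt at chr14:62213771-62214460, with a LOD of 14.7, percentiles of 74.3, 92.4 and 89.5 in replicates 1, 2 and 3, and 580 nt kept by the p filter. A site of 360 nt at chr14:62214621-62214980 ran to the end of the locus, with a LOD of 12.0. Between 500 and 1000 nt before the 3′ end, sites covered 67.6%, 96.6% and 90.6% of the bases in replicates 1, 2 and 3. These are the highest 500-nt values of the gene in each replicate within its last 5 kb.

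EPAS1 was nearly empty between its ends. No site lay in a stretch of 87.2 kb, or 97.7% of the locus, in any of the 3 replicates or in the combined list. Its 7 combined sites were 1 near the start and 6 in the last 2 kb. The first, chr2:46524671-46524720, began 130 nt from the start of the locus, had a LOD of 7.49 and was found in all 3 replicates. The highest, chr2:46611956-46612100, had a LOD of 11.7 and stood at percentiles 90.3, 87.4 and 70.0 in replicates 1, 2 and 3.

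The other EPAS1 sites followed within 2 kb of the end. Chr2:46612121-46612425 spanned 305 nt with a LOD of 7.29, chr2:46612441-46612575 had 7.43 and chr2:46612611-46612670 had 4.80, each in all 3 replicates. Chr2:46613786-46613825, 17 nt before the end, had 3.30 and was found in replicates 2 and 3. A site of 15 nt at chr2:46613371-46613385 had 1.11 and was in no replicate list. In replicates 1, 2 and 3, sites covered 26.4%, 69.4% and 64.4% of the bases between 1500 and 2000 nt before the end, and 0% between 500 and 1000 nt.

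ARNT resembled HIF1A in its upstream sites. Of its 91 combined sites, 77 lay upstream of the last 3 kb, where there were 6.66 ± 4.08 sites per 10 kb in the replicates (SD, n = 3), against 10.7 ± 5.38 in HIF1A. The highest LOD, 18.9, was at chr1:150783071-150783195 on the minus strand, 890 nt before the 3′ end, with percentiles of 99.2, 98.7 and 92.3 in replicates 1, 2 and 3. Sites with nearly the same score lay far upstream, chr1:150813766-150813840 with 18.6 and chr1:150814616-150814690 with 18.2. Chr1:150813766-150813840 stood at percentile 23.8 in replicate 1, against 97.2 and 99.8 in replicates 2 and 3.

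The last 3 kb of ARNT held mostly sites of low score. Of 14 combined sites there, 10 had a LOD under 2 and 7 overlapped no replicate list. Over all combined sites of the series, 72270 of 658853 overlapped no replicate list. Wide sites there were chr1:150782516-150782740, which spanned 225 nt with a LOD of 11.0, and chr1:150782776-150782990, which spanned 215 nt with 6.41, close to the median of all combined sites. Both were found in all 3 replicates.

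VHL had its strong sites in both parts of the locus. The highest LOD, 16.7, was at chr3:10192466-10192630 on the plus strand, 2724 nt before the 3′ end, with percentiles of 90.7, 97.3 and 90.6 in replicates 1, 2 and 3. Chr3:10186346-10186470, 8884 nt before the end, had a LOD of 15.3, and chr3:10195181-10195350, which stopped 4 nt short of the end, had 14.4. All 3 were found in every replicate. In the last 3 kb, 11 of 20 sites had a LOD under 2, against 2 of 17 upstream. The densest part of its last 3 kb was the 500 nt that began 2500 nt before the end in replicates 1, 2 and 3, with 44%, 71.8% and 57.8% of the bases covered. Over all combined sites of the series, 6.49% had a LOD under 2.

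VEGFA had 3 sites in all replicates, 1 near the start of the locus and 2 near its end. The strongest, chr6:43738081-43738205 on the plus strand, began 135 nt from the start, with a LOD of 18.3 and percentiles of 92.9, 97.2 and 99.2 in replicates 1, 2 and 3. Near the end, chr6:43753501-43753700 had a LOD of 15.4 and percentiles of 68.2, 95.5 and 92.4. Chr6:43753971-43754165, 58 nt before the end, had 13.1 and percentiles of 17.1, 89.4 and 81.6, so it ranked low in replicate 1 only. The other combined sites were weak: chr6:43753896-43753955 had 3.78 and chr6:43752696-43752745 had 2.41, each found in replicate 3 alone, and chr6:43752551-43752565 had 0.283 and was in no replicate list. Between the site at the start and the nearest of these lay 14.3 kb without a site in the combined list.

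SLC2A1 had 1 site that every replicate held. Chr1:43392421-43392525 on the minus strand lay 1375 nt before the 3′ end with a LOD of 14.9, and stood at percentiles 56.5, 93.2 and 88.8 in replicates 1, 2 and 3. It was the only SLC2A1 site of replicate 1. Chr1:43391926-43392000 had a LOD of 2.97 and was found in replicates 2 and 3. The 5 sites upstream of the last 3 kb had LOD scores between 4.46 and 7.66. Replicate 3 alone held 4 of them and no replicate list held the other. The site nearest the end, chr1:43391851-43391865, had 0.792 and was in no replicate list.

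SIRT1, the deacetylase, also carried sites along its whole length. The longest stretch without a combined site was 1.42 kb, or 4.21% of the locus, against 7.82, 1.575 and 1.585 kb in replicates 1, 2 and 3. Its highest LOD, 18.1, was at chr10:69645211-69645295 on the plus strand, 784 nt from the start, with percentiles of 79.0, 93.5 and 99.8 in replicates 1, 2 and 3. Chr10:69668851-69668945, 9202 nt before the end, and chr10:69676451-69676565, 1582 nt before it, both had 17.4. The sites of the end were wide, with 260 nt at chr10:69677816-69678075 (LOD 12.1) and 145 nt at chr10:69676586-69676730 (LOD 15.0). The last 500 nt were covered to 53.6%, 87% and 83% in replicates 1, 2 and 3. The outermost site, chr10:69678086-69678165, ran 18 nt past the end of the locus, was in replicates 2 and 3 and was not kept by the p filter.

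**Figure D2:**
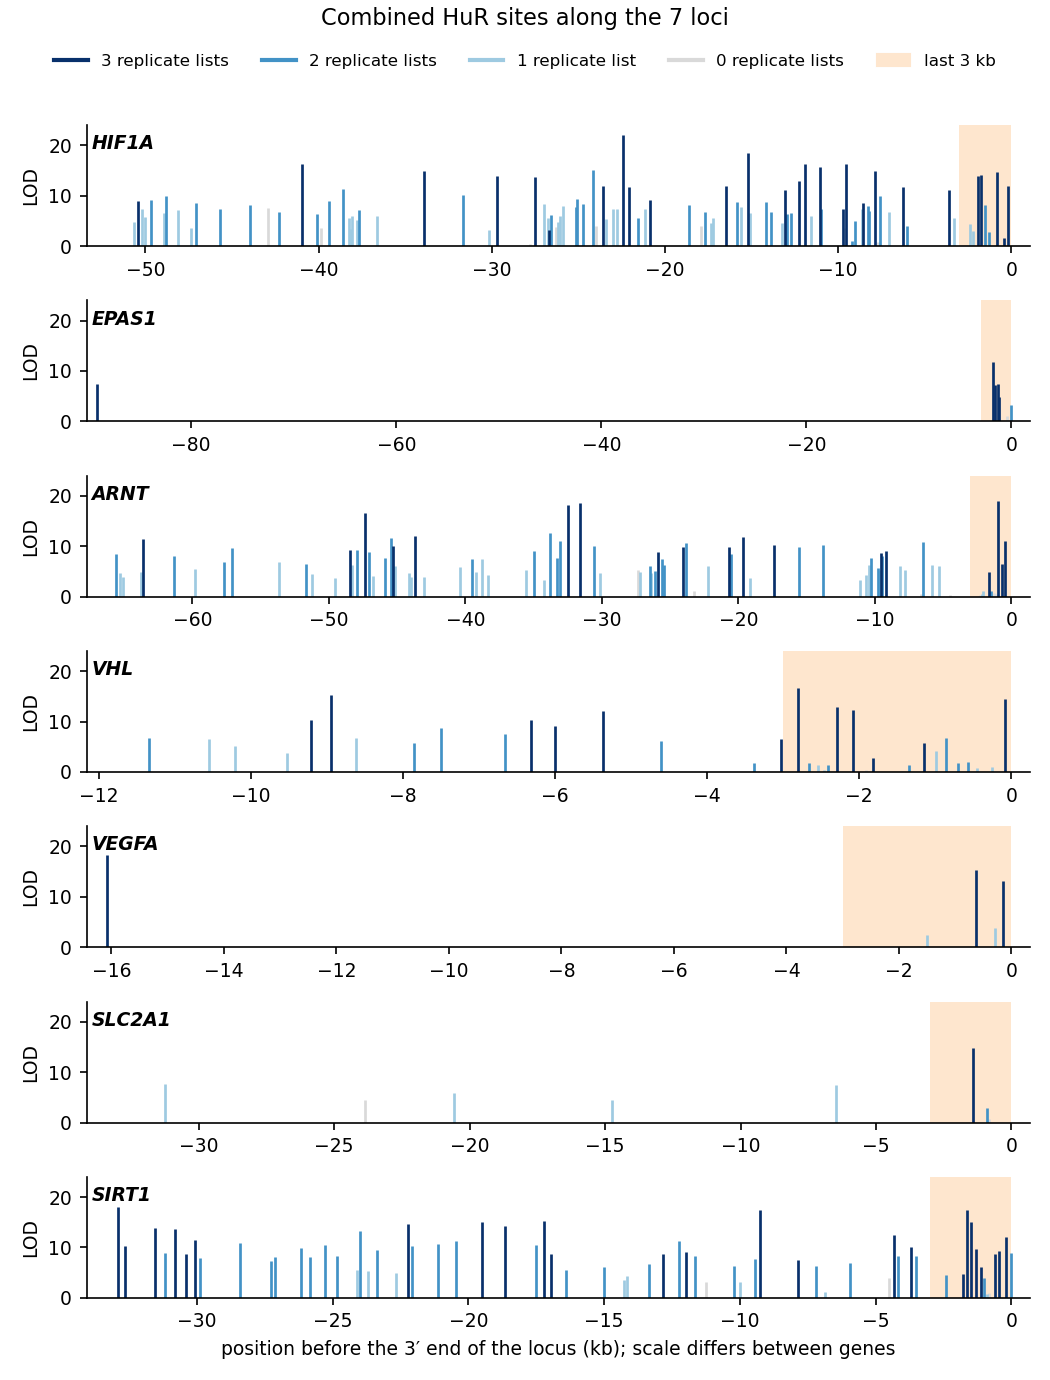
Combined HuR sites along each locus. The horizontal axis is the position before the 3′ end in kb (its scale differs between genes) and the vertical axis the combined LOD score, and darker lines overlap more of the 3 replicate lists. HIF1A, ARNT, VHL and SIRT1 carry sites along the locus, whereas EPAS1 and VEGFA have sites near the ends and 87.2 and 14.3 kb without any between them.

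The next comparison asked whether sites were concentrated at the 3′ end, where the untranslated region lies. The last 3 kb was more densely covered than the rest of the locus in every gene and every replicate. In HIF1A, 39.2% ± 8.89 of the last 3 kb was covered, against 5.96% ± 3.42 of the rest (SD, n = 3). SIRT1 had 34.9% ± 11.5 against 6.68% ± 3.52, VHL 33.8% ± 12.3 against 6.93% ± 3.05, and ARNT 17.3% ± 3.71 against 3.53% ± 2.35. EPAS1 had 16.9% ± 6.44 against 0.0483% ± 0.00669, VEGFA 12.7% ± 2.76 against 0.841% ± 0.0575, and SLC2A1 3.72% ± 1.35 against 0.184% ± 0.319. The gap exceeded the SD of both values in each gene. Exons and introns were not assigned and RNA levels along a locus were not analysed. More RNA from the last 3 kb and more HuR on each RNA there cannot be told apart. The same contrast was not computed for other loci of the series. With 3 replicates, the smallest two-sided p of an exact permutation of signs is 0.25, so no p is given.

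**Figure D3:**
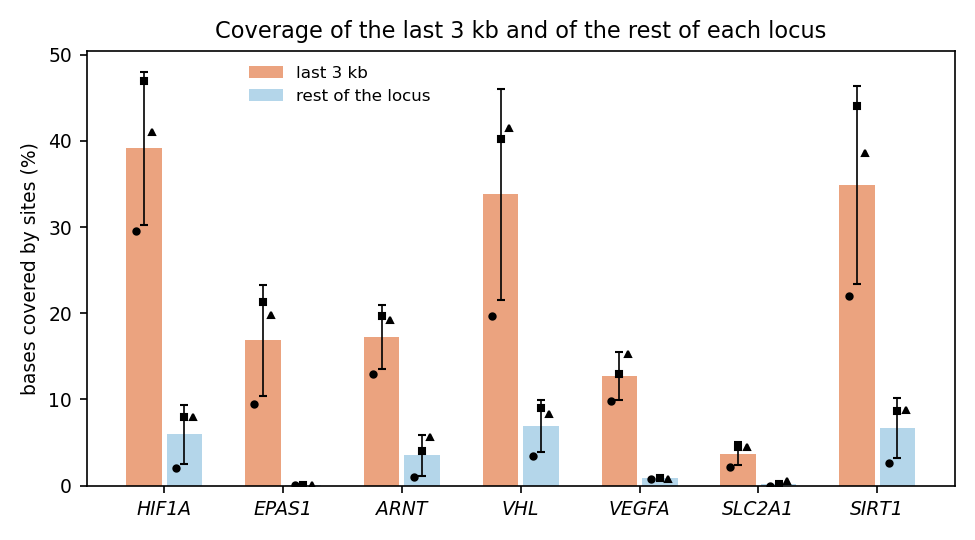
Share of bases covered by sites (vertical axis, %) in the last 3 kb and in the rest of each locus. Bars are means over 3 HuR replicates with the SD, and circles, squares and triangles are replicates 1, 2 and 3. The last 3 kb lies above the rest in all 7 genes.

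The genes differed in how much of their site sequence lay there. The last 3 kb held 91.4% ± 4.40 of the site bases of EPAS1 (SD, n = 3), although it is 3.36% of that locus. It held 77.0% ± 3.50 in VEGFA and 62.5% ± 2.93 in VHL, where it is 18.4% and 24.9% of the locus. With a shorter window the order differed: the last 1 kb held 3.33% of site bases in EPAS1 and 16.9% in VHL, against 74.1% in VEGFA. In SIRT1 the last 3 kb held 36.1% ± 7.92, in HIF1A 32.3% ± 12.7 and in ARNT 23.7% ± 13.2. The last 1 kb held 17.6% in SIRT1, 20.8% in HIF1A and 20.3% in ARNT. The share of the last 3 kb in SLC2A1 was 100%, 100% and 44.3% in replicates 1, 2 and 3, and the last 1 kb held 13.7% on average. Over the 7 loci together it was 52.4%, 35.9% and 32.3%, highest in replicate 1, the list with the fewest sites.

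GENCODE release 29 gives final exons of 1325 nt for HIF1A, 2195 for EPAS1, 2406 for ARNT, 2434 for VHL, 1947 for VEGFA, 1867 for SLC2A1 and 2126 for SIRT1, in the transcripts used above. By distance alone, 59 of the 315 combined sites (18.7%) lay closer to the 3′ end than the final exon is long, 6 of 7 in EPAS1, 5 of 6 in VEGFA, 15 of 37 in VHL, 3 of 8 in SLC2A1, 12 of 65 in SIRT1, 14 of 91 in ARNT and 4 of 101 in HIF1A. No position was carried over between builds. The transcripts of EPAS1, ARNT and SLC2A1 span as many bases as the hg19 loci. The span minus the locus was -823 nt in VHL, -377 nt in HIF1A, -3 nt in VEGFA and 1 nt in SIRT1, so the counts for VHL and HIF1A are the least exact. With a window as long as the final exon, the share of VHL site bases was 47.4%, and that of the 7 loci together was 36.3% against 40.2% for 3 kb.

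**Figure D4:**
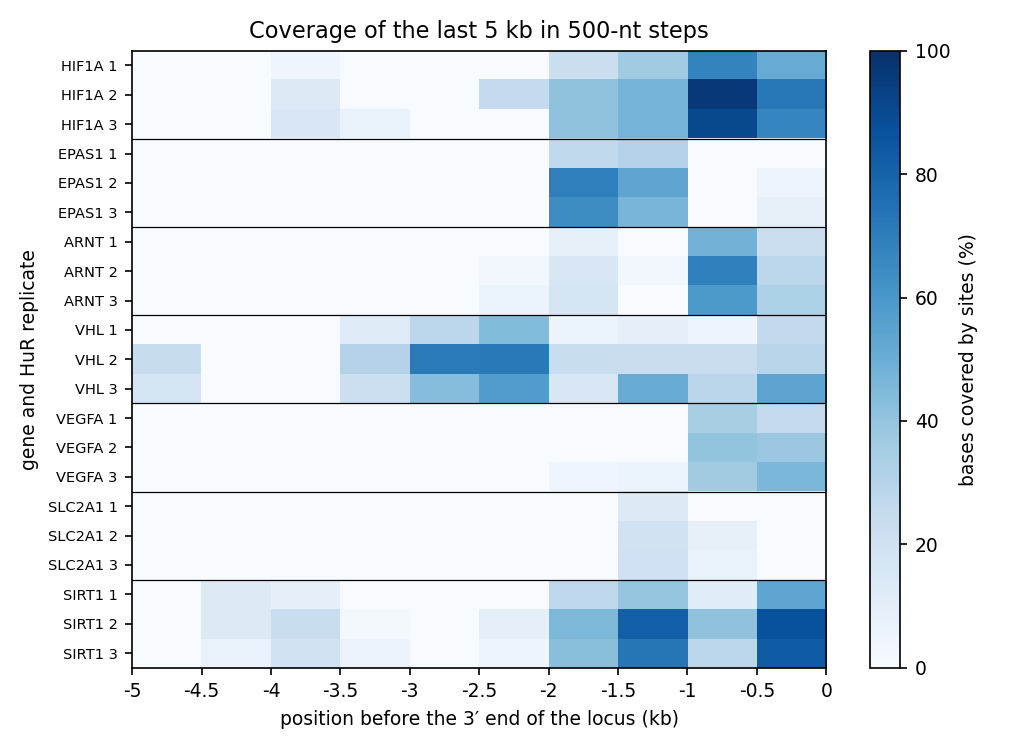
Share of bases covered by sites (colour, %) in 500-nt steps over the last 5 kb of each locus, with the 3′ end at the right and 1 row per gene and HuR replicate. HIF1A reaches 96.6% between 500 and 1000 nt before the end in replicate 2, while EPAS1 reaches 69.4% between 1500 and 2000 nt.

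Signal did not run far past the loci. In the 3 kb beyond the 3′ end, the replicates had no covered base in EPAS1, VHL, VEGFA and HIF1A, at most 13 nt in SIRT1, 20 nt in SLC2A1 and 65 nt in ARNT.

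Recurrence was compared over the combined sites. Of the 315, 91 (28.9%) overlapped a site in all 3 replicate lists, against 22.9% of all combined sites of the series. Another 31 of the 315 overlapped no replicate list, as did 72270 of the 658853 combined sites of the series. The 95% Wilson interval of the members' share in all 3 lists, 24.2 to 34.1%, covers counting error only and treats sites as independent. Among genes with more than 10 sites, SIRT1 had 25 of 65 (38.5%), VHL 12 of 37 (32.4%), HIF1A 27 of 101 (26.7%) and ARNT 18 of 91 (19.8%). The 95% Wilson intervals were 27.6 to 50.6% for SIRT1 and 19.6 to 48.5% for VHL. They were 19.1 to 36.1% for HIF1A and 12.9 to 29.1% for ARNT. Sites of a locus are treated as independent here too, so no gene was tested against the whole list. EPAS1 had 5 of 7, VEGFA 3 of 6 and SLC2A1 1 of 8. Replicate 1 was the shortest list, and without it 60.3% of the member sites overlapped both other lists, against 51.2% of all combined sites.

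Recurrence was also counted by position. In the last 3 kb, 30 of 70 sites (42.9%) were in all 3 lists, against 61 of 245 (24.9%) upstream. The sites there were also wider, with a median of 75 nt against 55 nt upstream, and the part of width in this count was not tested. Per gene, SIRT1 had 8 of 13 against 17 of 52, HIF1A 5 of 9 against 22 of 92 and ARNT 4 of 14 against 14 of 77. In VHL the shares were close, with 6 of 20 against 6 of 17, and EPAS1 and VEGFA had 4 of 6 and 2 of 5 in the last 3 kb with 1 of 1 upstream.

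Scores differed between these positions in the opposite direction. The median combined LOD was 3.84 in the last 3 kb and 7.42 upstream, and 27 of 70 sites had a LOD under 2, against 10 of 245. Most of these weak sites lay in VHL (11) and ARNT (10). In SIRT1 the medians were 8.72 and 8.67, and in HIF1A 8.16 and 7.27. Over all combined sites the median was 6.46.

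The p filter kept an interval in 186 of the 315 sites (59.0%), against 52.3% of all combined sites. It kept 6 of 7 in EPAS1, 45 of 65 (69.2%) in SIRT1, 4 of 6 in VEGFA, 62 of 101 (61.4%) in HIF1A, 47 of 91 (51.6%) in ARNT, 4 of 8 in SLC2A1 and 18 of 37 (48.6%) in VHL. In the last 3 kb it kept 4 of 14 in ARNT and 7 of 20 in VHL, against 10 of 13 in SIRT1 and 6 of 9 in HIF1A. By bases, it kept 72.9% in VEGFA, 62.0% in EPAS1, 56.3% in SIRT1, 53.2% in HIF1A, 46.3% in ARNT, 40.9% in VHL and 40.5% in SLC2A1, against 45.3% over the whole list, so ARNT, VHL and SLC2A1 were near the share of the list.

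**Figure D5:**
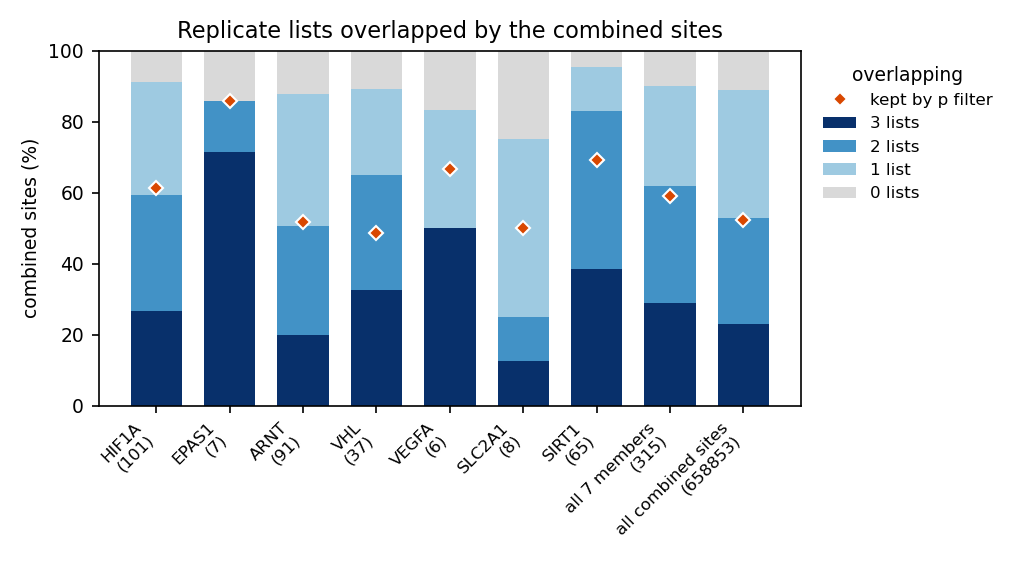
Share of combined sites (vertical axis, %) that overlap 3, 2, 1 or 0 replicate lists, for each gene, for all 7 members and for all combined sites, with the number of sites in brackets. Diamonds give the share kept by the p filter. SIRT1 reaches 38.5% in all 3 lists and ARNT 19.8%, against 22.9% of all combined sites.

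Replicates covered the same bases to different degrees. The Jaccard index, the bases called in both lists over those called in either, was 78.4% for replicates 1 and 2, 70.2% for 1 and 3 and 80.0% for 2 and 3 in VEGFA. In EPAS1 it was 48.2%, 50% and 86.5%, in SIRT1 36.7%, 34.0% and 70.6% and in HIF1A 33.9%, 33.9% and 63.1% for the same pairs. ARNT had 30.8%, 21.6% and 57.2%, VHL 42.8%, 42.5% and 58.9% and SLC2A1 48.1%, 21.3% and 39.7%. Replicates 2 and 3 shared the largest part in every gene except SLC2A1. The index is limited by the difference in covered bases between lists, and replicate 1 covered the fewest in each gene. In HIF1A, 1835 of the 1885 bases of replicate 1 were also called in replicate 2, which called 5365. In ARNT, 920 of the 1010 bases of replicate 1 were also called in replicate 3, which called 4160. The index was not computed over the whole lists.

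Within each list, member sites scored somewhat above the middle, which is percentile 50 by construction. Their median percentile was 57.9, 54.5 and 53.1 in replicates 1, 2 and 3. Per gene, VEGFA had 85.1 ± 9.12 (SD, n = 3), SIRT1 65.3 ± 4.60, HIF1A 59.9 ± 9.37, SLC2A1 52.8 ± 3.40, ARNT 49.5 ± 8.81, VHL 31.2 ± 23.3 and EPAS1 21.5 ± 4.14. The value of VEGFA rests on 3 to 5 sites per replicate. EPAS1, with 6 sites in each replicate, lay below every other gene except VHL by more than the spread of both. This order did not hold in the combined list, where the median percentile was 71.5 in SIRT1, 59.1 in EPAS1, 58.9 in HIF1A, 55.0 in VEGFA, 46.9 in ARNT, 40.6 in VHL and 33.6 in SLC2A1.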

How the data were processed

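The tools named in the submitters' processing notes are cutadapt 1.0 and TopHat2 2.0.8, and the build is hg19 (GRCh37). Each interval of the deposited BED lists has a LOD score from the authors, whose computation no label or header describes. Per the names of the lists, all scores are above 0, and 1 combined list was limited by the authors at p 0.05. Intervals were converted to 1-based coordinates. A site belonged to a gene if it overlapped the locus on the same strand by at least 1 nt, and bases were counted inside the locus only. A site lay in the last 3 kb if its middle did. Percentiles are ranks within a list. Each site was paired with the replicate site that shared the most bases. Samples were grouped by their titles.

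Named sites are all those of loci with 10 or fewer. For the other loci they are the highest LOD, the 3 highest and the 3 widest sites in all 3 lists and the site nearest the 3′ end, of which not all are named. The members and the lists were chosen with earlier results of these data known. The 500-nt steps, motif counts, empty stretches, LOD under 2 and final exon lengths were chosen after seeing the data. The planned list of other pathway genes was not run, since no hg19 annotation was at hand. Python 3.11.15, numpy 2.4.6, pandas 2.3.3, scipy 1.17.1 and matplotlib 3.10.9 were used, and the overlap code was tested on simulated data. The sequence stretch of VHL is not reported here.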

Additional observations from a re-analysis of the deposited data

How the results depend on the processing

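Of 44 alternative values for the 6 results over all 7 loci, 30 stayed within the bound and 14 moved. The bound was the SD over replicates, or for shares of combined sites the 95% Wilson interval. Reversals of direction were not scored. Where the bound was the SD, a mean without 1 of the 3 replicates cannot leave it. Such values count among those that stayed, by construction. With lists of equal size, sites per 10 kb were 3.47 against 6.48, and the share in all 3 lists was 15.6%. Bases called in all 3 lists covered 1.87% of the loci against 4.22%, and 53.8% of them lay in the last 3 kb. With at least 50% of each interval shared, 17.1% of combined sites were in all 3 lists and 47.0% were kept by the p filter. Among p-filtered intervals 48.5% were in all 3 lists. The p filter kept 66.9% of sites with a LOD above 2 and 51.2% of bases, against 45.3% of bases over the whole list. Apart from this and the share without replicate 1, no share over all combined sites was computed at these settings. Whether the members' shares stay above those of the series there was not tested. The median percentile was 58.9 at a LOD above 1, 61.4 above 2 and 69.0 with sites weighted by width. The last 1 kb held 20.5% of site bases. Causes were not tested, although a higher LOD limit raises percentiles by construction. Without each replicate in turn, sites per 10 kb ranged from 5.36 to 7.98, coverage from 3.59% to 5.34%, the share in all remaining lists from 29.5% to 60.3%, the median percentile from 53.8 to 56.2 and the share in the last 3 kb from 34.1% to 44.1%. The value of 60.3% came without replicate 1. Per gene, 154 of 189 alternative values for density, recurrence and the last 3 kb stayed within the bound and 35 moved. Here too, values for density and the last 3 kb without 1 replicate could not move. Unknown depth limits statements on missing sites. No paired analysis was possible because HuR samples were not compared with control samples. The last 3 kb and the rest of a locus were compared within each HuR replicate.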

Other observations

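The opposite strand of the loci held 9 combined sites, in HIF1A, EPAS1, VHL, VEGFA and SIRT1. VHL had 4 of them, all in its last 2 kb: chr3:10193736-10193780 on the minus strand had a LOD of 11.3 and was found in all 3 replicates, chr3:10194941-10194990 had 14.7 and was found in 2, chr3:10194046-10194080 had 10.3 and chr3:10195111-10195145 had 6.25, each found in 1. The other 5 were 20 or 25 nt wide with LOD scores between 3.05 and 5.01, and each was found in at most 1 replicate. They were picked out with their values known.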
